A study of Mus musculus with 36 samples.

Results

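Nanog binding was compared between GFP-high and standard serum cultures of KH2 cells, an established mouse embryonic stem (ES) cell line. The regions were all Nanog peaks of the 2 deposited lists on chromosomes 1 to 19 and X (build mm9), joined where peaks of the lists overlapped by at least 1 bp. This gave 34520 regions, out of 84927 regions when the peaks of all 14 lists of the series were joined in the same way. The rule used the lists' labels and no measured value.

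Nanog is a homeodomain transcription factor of the pluripotency network, and with Oct4 (Pou5f1) and the HMG-box factor Sox2 it occupies many of the same enhancers in ES cells. Nanog levels vary from cell to cell in serum. In 2i medium, which contains inhibitors of MEK and GSK3, Nanog is more evenly high and the cells are held in a naive, or ground, state. H3K4me3, trimethylation of lysine 4 on histone H3, marks active and CpG-rich promoters.

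The series comprised 36 samples of mouse ES cells in serum or 2i, and 22 of them fed the 14 peak lists used here, which held Nanog, Oct4, Sox2 or H3K4me3. The GFP-high list came from 1 sample, KH2 cells with the culture label GFP_high_Serum and an antibody of lot C01MG07. The standard serum list came from 2 samples, KH2 cells with the culture label Standard Serum and the same vendor's antibody of lot 20100713. The labels do not state which gene GFP reported or how the cells were separated. All KH2 cultures had LIF and irradiated mouse embryonic fibroblasts as feeders, and the amount of feeder chromatin in each library was not tested. The 2i lists of KH2 cells were Nanog after 24 h with lot 20100713, Nanog after 3 passages with lot 20100713 and Nanog after 24 h with lot C01MG07. A further Nanog list with lot C01MG07 came from DNMT triple knockout cells, ES cells without DNA methyltransferases, after 24 h of 2i.

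Several features of the lists moved together with the culture label. The GFP-high list held 33 peaks on unplaced contigs and 0 on chromosome Y, whereas the standard serum list held 0 on contigs and 21 on Y. Contig peaks were also present in the 2i lists after 3 passages (25) and after 24 h with lot C01MG07 (22), and absent from the 24 h list with lot 20100713 (0). Peak names were numbered up to 261962 in the GFP-high list and 92516 in the standard serum list, so both lists hold a selection of the peaks called. The lowest −log10 q kept was 22.0 in the GFP-high list and 13.99 in the standard serum list. The GFP label, the antibody lot and the way each list was made therefore differed together and cannot be told apart. Each condition had 1 list, so no test over replicates was possible. The 95% intervals below are exact binomial for a share and Newcombe for a difference of shares, and they cover counting error over regions only. A region without a peak means not called in that list, and read depth is unknown from these files.

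GFP-high and standard serum cells shared the stronger Nanog regions, and each list had a large set of weaker regions of its own. The GFP-high list held 26415 peaks, and the standard serum list held 25513. Of the 34520 regions, 9161 were called in GFP-high cells only, which is 26.5% of all regions. A further 17176 (49.8%, interval 49.2 to 50.3%) were called in both lists, and 8183 (23.7%) in standard serum only. The shared regions made up 65.2% of the GFP-high regions and 67.7% of the standard serum regions.

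The fold enrichment over control that the authors' peak caller gave separated the classes within each list. In the GFP-high list, GFP-high-only regions had a median fold of 8.90 (quartiles 7.37 and 11.9), against 14.2 (9.15 and 24.8) for shared regions. In the standard serum list, standard-serum-only regions had a median fold of 9.09 (7.62 and 11.3), against 15.2 (10.3 and 24.9) for shared regions. The private regions thus lay in the lower part of their own list, although the ranges overlapped. Within its own list, a fold of at least 20 was reached by 605 GFP-high-only regions (6.60%) and by 240 standard-serum-only regions (2.93%). A fold of at least 50 was reached by 59 GFP-high-only regions and by 3 standard-serum-only regions.

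The share of peaks met by the other list rose with fold in both directions. Among GFP-high peaks, 47.5% of those with a fold under 10 overlapped a standard serum peak, and 95.6% of those with a fold of 50 or more did. Among standard serum peaks the same shares with a GFP-high peak were 43.7% and 99.6%. Of the 1000 strongest GFP-high peaks by fold, 963 met a standard serum peak, while 998 met a 2i peak of 3 passages and 999 met a 24 h 2i peak of lot C01MG07. The 24 h 2i list of lot 20100713 met 978. The top GFP-high peaks were therefore missing from the standard serum list more often than from these 2i lists. The lists differed in length, with 25513 peaks in standard serum and 33184 after 3 passages. Of the 1000 strongest standard serum peaks, 995 met a GFP-high peak. A 2i peak was met by 993 at 24 h with lot 20100713, 991 after 3 passages and 945 at 24 h with lot C01MG07. In the 16956 shared regions with 1 peak in each serum list, the summits lay a median of 37 bp apart, and 88.6% lay within 100 bp.

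GFP-high-only regions were found in the 2i Nanog lists more often than standard-serum-only regions in 2 of the 3 KH2 lists, and less often in the other. After 3 passages of 2i, 56.8% (55.8 to 57.8%) of GFP-high-only regions held a Nanog peak, against 40.0% (38.9 to 41.1%) of standard-serum-only regions. The difference was 16.8 percentage points (15.3 to 18.3), and 69.1% of all 34520 regions held such a peak. In the 24 h list of lot C01MG07, the shares were 39.3% for GFP-high-only and 15.4% for standard-serum-only regions, a difference of 23.9 points (22.6 to 25.1), with 48.8% among all regions. In the 24 h list of lot 20100713 the order was the opposite, with 52.0% of GFP-high-only and 63.8% of standard-serum-only regions. That difference was -11.8 points (-13.3 to -10.3), with 75.5% among all regions. This list was the longest, with 41729 peaks, and with the Nanog lists of 2i at equal length the difference was -6.28 points. The lists of 24 h of 2i thus gave opposite directions, and in each the higher share belonged to the private regions of the serum list made with the same antibody lot. In the 3 passage list, also of lot 20100713, the higher share belonged to the private regions of the serum list made with the other lot.

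In every 2i list the private regions lay below the share of all regions, while shared regions lay above it. Shared regions held a Nanog peak in 93.6% of cases in the 24 h list of lot 20100713, in 89.6% after 3 passages and in 69.7% in the 24 h list of lot C01MG07. In DNMT triple knockout cells after 24 h of 2i, the shares were 34.5% of GFP-high-only, 64.0% of shared and 29.3% of standard-serum-only regions, with 48.0% among all regions. The difference between GFP-high-only and standard-serum-only regions was smaller in that list, at 5.24 points (3.86 to 6.63). When the 2 lists of lot 20100713 were joined, a peak in at least 1 of them was held by 68.4% of GFP-high-only and 66.6% of standard-serum-only regions, a difference of 1.80 points (0.40 to 3.19). With the serum lists at equal length by fold, the shares were 68.1% of GFP-high-only and 68.0% of standard-serum-only regions, so this small difference did not hold in that setting. The other alternatives kept a higher GFP-high-only share. It was 69.9% against 67.0% at equal length by −log10 q, and 73.1% against 71.9% at a common lowest −log10 q.

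**Figure D1:**
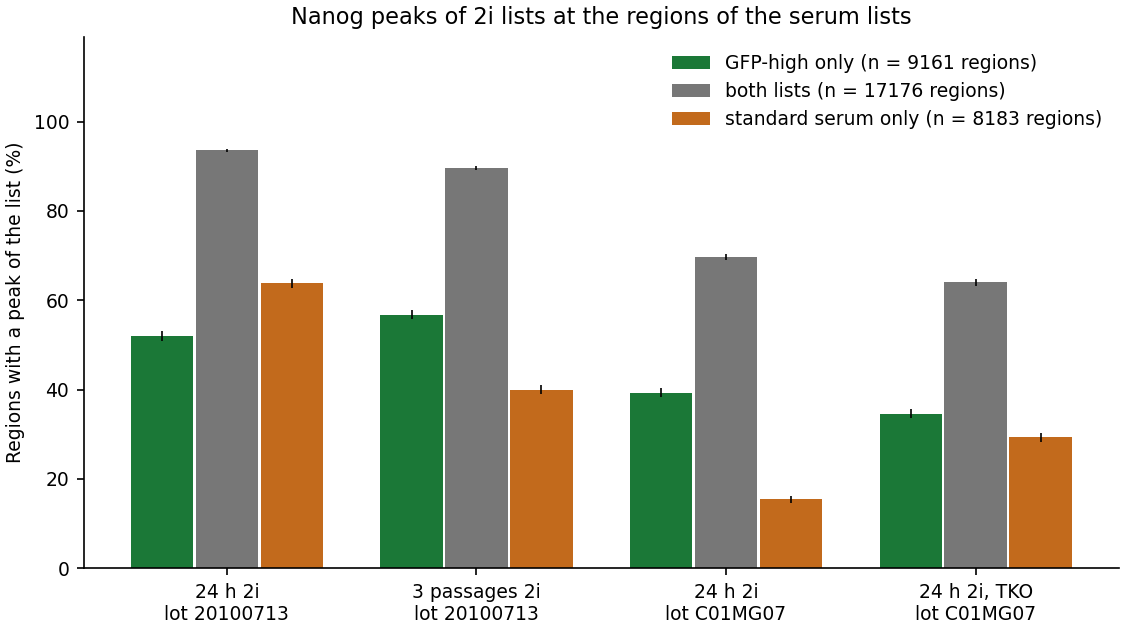
Share of regions (%) with a Nanog peak of each 2i list, by class of region, with exact 95% intervals as error bars. GFP-high-only regions reached 52.0%, 56.8% and 39.3% in the 3 KH2 lists, against 63.8%, 40.0% and 15.4% for standard-serum-only regions, so that the order of the private classes turned between the 24 h lists of different lots.

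The combination of calls over the 3 KH2 lists of 2i showed where the private classes parted. Calls in all 3 lists were made at 2409 GFP-high-only (26.3%), 1102 standard-serum-only (13.5%) and 11752 shared regions (68.4%). Calls after 3 passages and at 24 h with lot C01MG07, but not at 24 h with lot 20100713, covered 855 GFP-high-only regions (9.33%). The same calls covered 58 standard-serum-only (0.709%) and 128 shared regions (0.745%). The reverse pattern, a call at 24 h with lot 20100713 alone, was seen at 943 GFP-high-only (10.3%) and 2121 standard-serum-only regions (25.9%). It was seen at 937 shared regions (5.46%). No 2i call was made at 2684 GFP-high-only (29.3%), 2691 standard-serum-only (32.9%) and 749 shared regions (4.36%). The private classes parted mainly in which of the 2i lists called their regions.

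**Figure D2:**
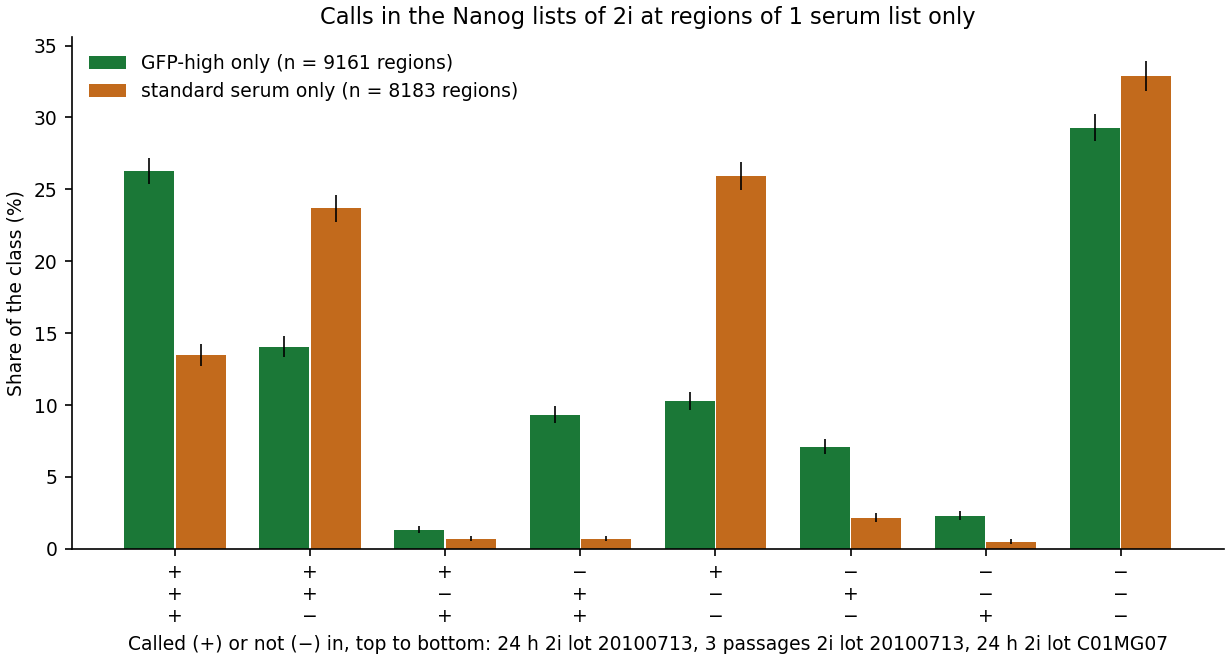
Share of each private class (%) by its calls in the 3 KH2 Nanog lists of 2i, where plus marks a call and minus none, with exact 95% intervals as error bars. GFP-high-only regions exceeded standard-serum-only regions in the pattern with all 3 calls (26.3% against 13.5%) and in the pattern without the 24 h list of lot 20100713 (9.33% against 0.709%).

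Calls were also counted by the presence of contig peaks in the lists. This regroups call patterns given above, with slightly different counts, and is not a separate result. The patterns are those of 855 GFP-high-only (9.33%) and 2121 standard-serum-only regions (25.9%). The GFP-high list and the 2 KH2 lists of 2i with contig peaks together called 837 regions that neither list without contig peaks called, and these had a median GFP-high fold of 14.3. The standard serum list and the 24 h list of lot 20100713 together called 2100 regions that none of the other 3 called, and these had a median standard serum fold of 8.56. A fold of at least 20 in the serum list was reached by 239 of the 837 and by 53 of the 2100. For scale, 6.60% of all GFP-high-only and 33.1% of shared regions reached this fold in the GFP-high list. In the standard serum list, 2.93% of standard-serum-only and 34.9% of shared regions reached it. A partial split by antibody lot was present too. Calls in both 2i lists of lot 20100713 and not in that of lot C01MG07 were made at 1937 standard-serum-only regions (23.7%). Calls in the 2i list of lot C01MG07 alone were made at 210 GFP-high-only (2.29%), 41 standard-serum-only (0.501%) and 36 shared regions (0.210%). The cause of either split was not tested.

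The strongest GFP-high-only regions were mostly called in 2 of the 2i lists. Among the 605 with a fold of at least 20, 96.0% (94.2 to 97.4%) were called after 3 passages of 2i and 83.8% (80.6 to 86.6%) at 24 h with lot C01MG07. Only 50.4% (46.4 to 54.5%) were called at 24 h with lot 20100713, and 39.0% in the DNMT triple knockout cells. The 5685 shared regions of the same fold had 99.2%, 93.2%, 98.5% and 78.8% in the same order of lists. Over the fold ranges, the share of GFP-high-only regions called after 3 passages climbed, while the share called at 24 h with lot 20100713 stayed between 49.6% and 57.6%.

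Fold within the 2i lists told the same regions apart. All 3 KH2 lists of 2i called 265 of the strong GFP-high-only regions and 5247 of the strong shared regions. In the 24 h list of lot 20100713 the median fold was 11.4 for GFP-high-only and 30.9 for shared regions, which placed them above 53.4% and 90.0% of that list's peaks. After 3 passages the medians were 20.5 and 24.6, above 85.7% and 90.0% of the peaks. In the 24 h list of lot C01MG07 they were 22.0 and 22.4, above 82.5% and 83.0% of the peaks. Strong GFP-high-only regions therefore ranked near shared regions in 2 of these lists and near the middle of the third. A further 239 strong GFP-high-only regions, on all 20 chromosomes, were called after 3 passages and at 24 h with lot C01MG07 but not at 24 h with lot 20100713. Of these, 19 (7.95%) held a peak in any Oct4 or Sox2 list.

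The reverse view starts from 2i binding that standard serum cells lacked. Of 10021 regions called in both 2i lists of lot 20100713 and not in standard serum, GFP-high cells held 3642, or 36.3% (35.4 to 37.3%). Of 4876 regions called in all 3 KH2 lists of 2i and not in standard serum, they held 2368, or 48.6% (47.2 to 49.98%). Of the 9697 regions seen at 24 h with lot 20100713 and in no other of these lists, 957 (9.87%) were called in GFP-high cells. Of the 1645 regions called after 3 passages and at 24 h with lot C01MG07, but neither in standard serum nor at 24 h with lot 20100713, they held 840 (51.1%). Of the 1491 regions called at 24 h with lot C01MG07 and neither in standard serum nor in a 2i list of lot 20100713, they held 213 (14.3%). GFP-high cells thus held few of the regions that a single 24 h list called, and larger shares of those that a 24 h list had in common with the 3 passage list. For scale, GFP-high cells held 11752 of the 12854 regions (91.4%) called in standard serum and in all 3 KH2 lists of 2i.

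Whole lists were compared after each was shortened to its 21893 peaks with the highest −log10 q, the length of the shortest Nanog list. Of the regions of GFP-high cells and a second list, 55.5% were common with 3 passages of 2i, 51.0% with standard serum, 49.7% with 24 h of lot 20100713 and 49.0% with 24 h of lot C01MG07. For standard serum the shares were 52.0% with 24 h of lot 20100713, 48.8% with 3 passages and 39.3% with 24 h of lot C01MG07. The GFP-high list had its highest likeness with the 3 passage list. Each 24 h list of 2i also had its highest likeness with that list. The shares were 65.2% for lot 20100713, 63.0% for lot C01MG07 and 42.4% for the DNMT triple knockout cells. High likeness with the 3 passage list was therefore not particular to GFP-high cells. The standard serum list had similar likeness with 24 h of its own lot (51.4 to 52.6%) and with GFP-high cells (50.4 to 51.6%), and these intervals overlap. With the lists as deposited, the GFP-high list again had most in common with 3 passages (52.8%), whereas the standard serum list had 49.8% in common with GFP-high cells, 46.8% with 3 passages and 46.5% with 24 h of its own lot. The 2 lists of 24 h of 2i in KH2 cells had 50.3% in common, about the likeness of the 2 serum lists. Across the 11752 regions that all 5 KH2 Nanog lists called, the GFP-high fold had a Spearman rho of 0.684 with 3 passages, 0.639 with standard serum, 0.619 with 24 h of lot C01MG07 and 0.473 with 24 h of lot 20100713. The 3 passage fold had a higher rho with the 24 h lists, at 0.762 for lot 20100713 and 0.825 for lot C01MG07. These are descriptions across regions of the same libraries, and all folds rest on the authors' controls.

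**Figure D3:**
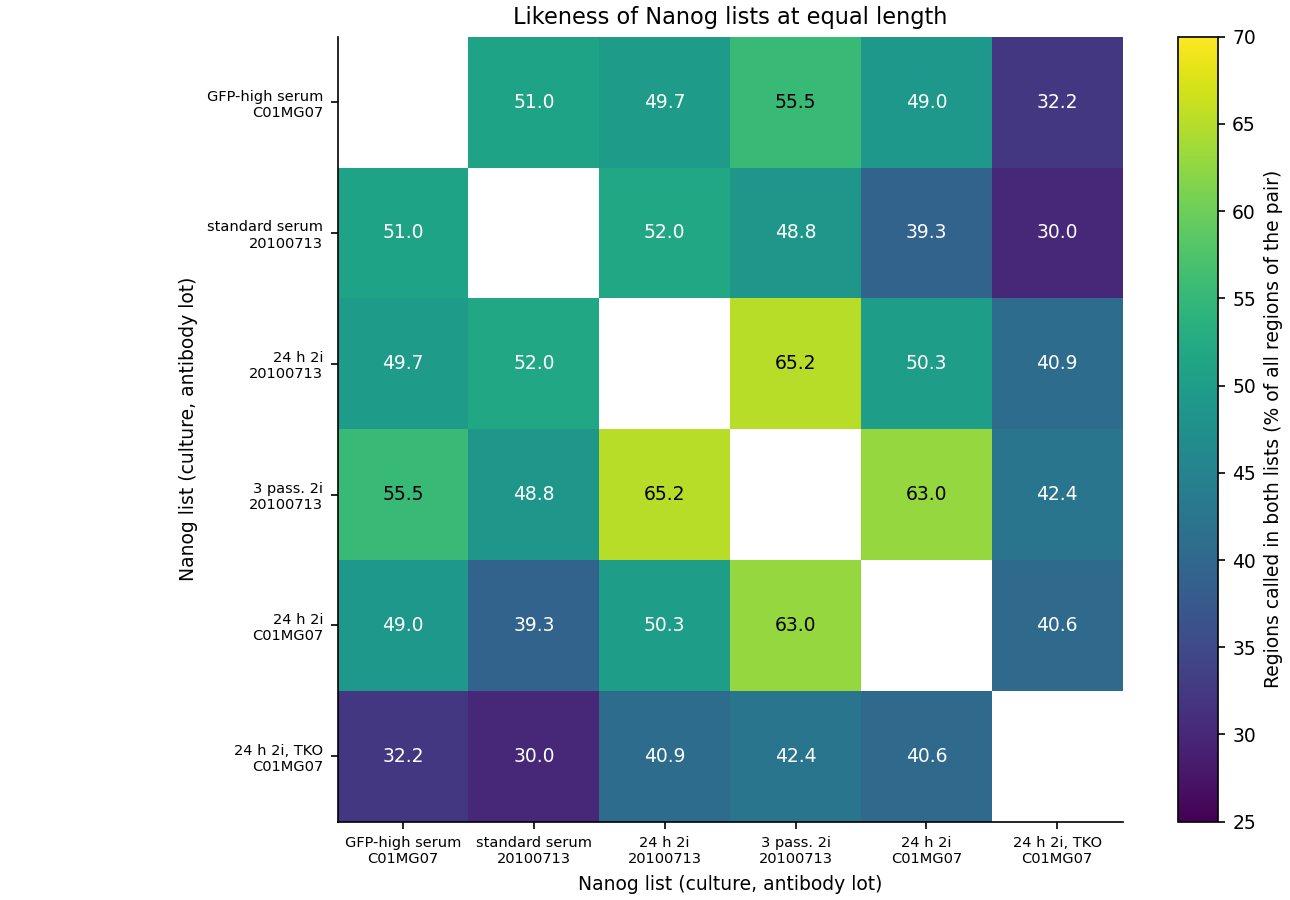
Regions called in both lists of a pair, as a percentage of all regions of the pair, for the 6 Nanog lists at 21893 peaks each, with culture and antibody lot on both axes. The GFP-high list shared 55.5% with 3 passages of 2i and 51.0% with standard serum, while the 24 h lists of the 2 lots shared 50.3% with each other. Each 24 h list of 2i also shared most with the 3 passage list.

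Oct4 and Sox2 peaks were sparse at GFP-high-only regions. Sox2 peaks of serum cells were found at 3.39% (3.03 to 3.79%) of GFP-high-only, 55.01% of shared and 17.6% (16.8 to 18.5%) of standard-serum-only regions, with 32.5% among all regions. The difference between the private classes was -14.2 points (-15.2 to -13.3). Sox2 peaks of 24 h of 2i were found at 13.5% (12.8 to 14.2%) of GFP-high-only, 57.8% of shared and 11.2% (10.6 to 11.9%) of standard-serum-only regions, with 35.0% among all regions. Here the difference was 2.25 points (1.27 to 3.23) in the other direction. Sox2 after 3 passages stood at 5.75% of GFP-high-only and 5.24% of standard-serum-only regions, with 22.4% among all regions and a difference of 0.51 points (-0.171 to 1.19) whose interval included 0.

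At GFP-high-only regions Sox2 was thus called more often after 24 h of 2i than in serum, and at standard-serum-only regions less often. Sox2 at 24 h of 2i but not in serum was seen at 1063 GFP-high-only regions (11.6%), against 419 standard-serum-only regions (5.12%). Shared regions had this state more often than either private class, at 2646 (15.4%). The reverse, Sox2 in serum but not at 24 h, was seen at 138 GFP-high-only (1.51%), against 942 standard-serum-only regions (11.5%). It was seen at 2169 shared regions (12.6%). When the Sox2 lists were shortened to the same 13116 peaks, Sox2 at 24 h stood at 11.1% of GFP-high-only and 9.45% of standard-serum-only regions. The Sox2 list of 24 h resembled the standard serum Nanog list in its layout, with 0 contig peaks and 42 peaks on Y, whereas the serum Sox2 list held 3 and 12. The lowest −log10 q kept was 3.69 in the 24 h Sox2 list and 17.3 in the serum Sox2 list. The part of this unlike threshold in the Sox2 calls was not tested.

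Oct4 was called at fewer regions than Sox2 of the same culture in every class, and its lists were shorter, with 7820 peaks at 24 h of 2i and 5011 in serum. In 24 h of 2i, Oct4 peaks lay at 5.87% of GFP-high-only, 33.3% of shared and 5.80% of standard-serum-only regions, with 19.5% among all regions. The difference between the private classes was 0.068 points (-0.634 to 0.766), an interval that included 0. In serum, Oct4 peaks lay at 1.54% of GFP-high-only, 23.2% of shared and 4.04% of standard-serum-only regions, with 12.9% among all regions and a difference of -2.51 points (-3.01 to -2.02). Oct4 and Sox2 together, each in any of its lists, were seen at 338 GFP-high-only (3.69%), 5885 shared (34.3%) and 379 standard-serum-only regions (4.63%). Co-occupied regions were thus mainly regions of both serum lists.

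Strength did not bring GFP-high-only regions to the Oct4 and Sox2 shares of shared regions. Among regions with a GFP-high fold of at least 20, Sox2 at 24 h of 2i was called at 19.2% (16.1 to 22.5%) of GFP-high-only and 83.6% of shared regions. Sox2 in serum was called at 2.48% (1.39 to 4.06%) of GFP-high-only and 76.1% of shared regions. Oct4 at 24 h of 2i was called at 5.45% of GFP-high-only and 52.8% of shared regions. No Oct4 or Sox2 peak of any list was present at 456 of the 605 strong GFP-high-only regions (75.4%), against 454 of the 5685 strong shared regions (7.99%). Of the 240 standard-serum-only regions with a standard serum fold of at least 20, 48.8% held a serum Sox2 peak.

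**Figure D4:**
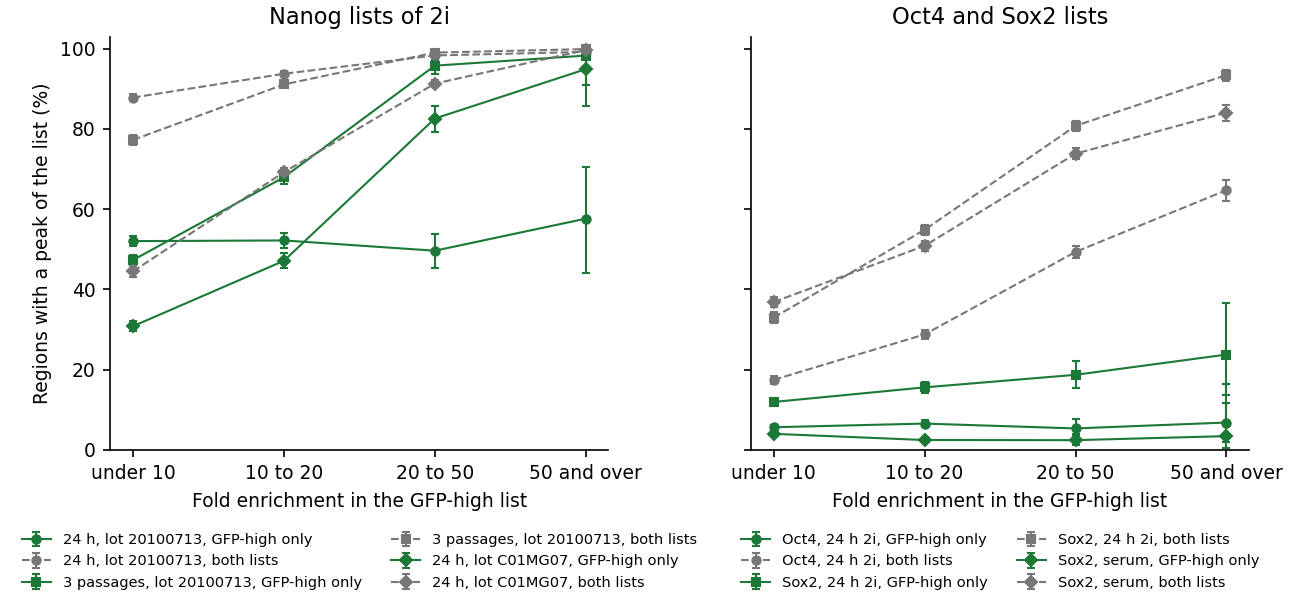
Share of GFP-high-only (solid) and shared (dashed) regions (%) with a Nanog peak of 2i (left) or an Oct4 or Sox2 peak (right), by fold enrichment in the GFP-high list, with exact 95% intervals. The 3 passage share of GFP-high-only regions approaches that of shared regions at high fold, whereas their Sox2 and Oct4 shares stay far below it.

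Within the GFP-high-only class, the share with Sox2 at 24 h varied with the 2i lists that called the region. It was 28.3% of the 2409 regions called in all 3 lists, 19.3% of the 1287 called in both lists of lot 20100713 and not in that of lot C01MG07, and 12.4% of the 943 called at 24 h with lot 20100713 alone. It was 4.56% of the 855 called in all but the 24 h list of lot 20100713, and 3.73% of the 2684 called in none. This fall was not particular to the class. From all 3 lists to both of lot 20100713, 24 h of that lot alone and none, standard-serum-only regions had 25.2%, 17.9%, 9.29% and 2.68%. Shared regions had 71.5%, 37.9%, 16.2% and 5.61%. At GFP-high-only regions Sox2 in serum did not follow this order, with 3.45% of the regions called in all 3 lists, 6.92% of the 1287 and 6.15% of the 943. Of the 681 GFP-high-only regions with Nanog in all 3 lists and Sox2 at 24 h, 176 also held Oct4 at 24 h, 58 held Sox2 in serum and 479 held Nanog in the DNMT triple knockout cells. Among all 2409 regions called in all 3 lists, the shares were 12.1%, 3.45% and 70.4% in the same order. Oct4 and serum Sox2 were thus more frequent among the 681, whereas the share with Nanog in the knockout cells was about the same.

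H3K4me3 was less frequent at GFP-high-only than at standard-serum-only regions in each of its lists. In serum it lay at 4.49% of GFP-high-only, 8.29% of shared and 17.3% of standard-serum-only regions, with 9.42% among all regions. The difference between the private classes was -12.8 points (-13.7 to -11.9). After 24 h of 2i the shares were 3.58%, 6.79% and 15.1% in the same order of classes, with 7.90% among all regions. After 3 passages they were 5.56%, 9.36% and 16.1%, with 9.94% among all regions. The mark was therefore above its share among all regions only in the standard-serum-only class.

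Most H3K4me3 regions of the private classes were weak Nanog regions. Among GFP-high-only regions, 5.82% of those with a GFP-high fold under 10 held serum H3K4me3, 1.98% of those with a fold of 10 to 20, 2.75% of those with 20 to 50 and 8.47% of the 59 with 50 or more. Among standard-serum-only regions, the shares by standard serum fold were 23.2% under 10, 7.74% at 10 to 20 and 4.64% at 20 to 50. H3K4me3 without any Oct4 or Sox2 peak was seen at 441 GFP-high-only (4.81%) and 1191 standard-serum-only regions (14.6%). Standard-serum-only regions called at 24 h with lot 20100713 and in no other KH2 list of 2i held serum H3K4me3 in 32.4% of cases. A peak of none of the 8 Oct4, Sox2 and H3K4me3 lists was the most common state of the private classes, at 6936 GFP-high-only (75.7%) and 4834 standard-serum-only regions (59.1%), against 3995 shared regions (23.3%).

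**Figure D5:**
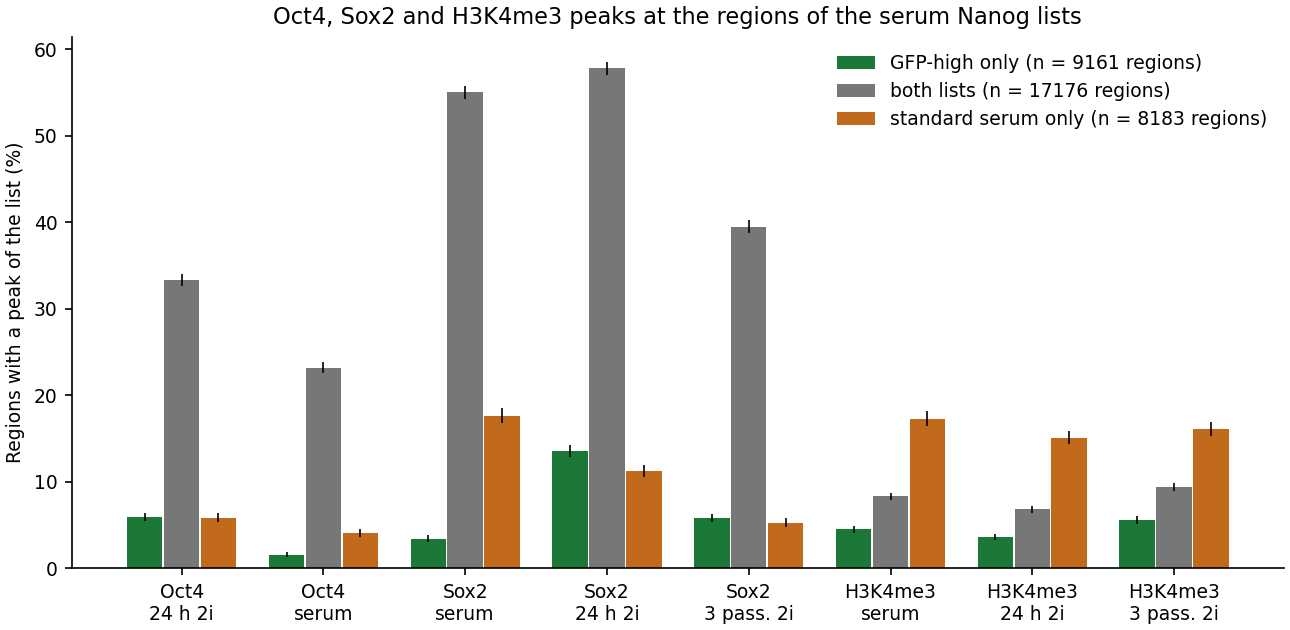
Share of regions (%) with a peak of each Oct4, Sox2 and H3K4me3 list, by class of region, with exact 95% intervals as error bars. Shared regions lead for Oct4 and Sox2 (55.01% with serum Sox2), and standard-serum-only regions lead for H3K4me3 (17.3% in serum, against 4.49% of GFP-high-only regions).

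The strongest single regions show these patterns at particular sites, given in mm9 coordinates without gene names because no annotation of that build was used. The 10 GFP-high-only regions of highest fold were all called after 3 passages and at 24 h with lot C01MG07, 5 of them at 24 h with lot 20100713 and 4 in the DNMT triple knockout cells. Of the 10, 8 held no Oct4 or Sox2 peak. The first was chr16:20860517-20861524, with a fold of 93.4 in GFP-high cells, 56.9 after 3 passages, 55.3 at 24 h with lot C01MG07 and 10.8 at 24 h with lot 20100713.

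The region chr8:99706030-99707136 had a fold of 82.6 in GFP-high cells, 28.9 after 3 passages and 23.5 at 24 h with lot C01MG07, with no call at 24 h with lot 20100713. The same absence was seen at chr5:18909944-18911395, where the folds were 78.3, 31.7 and 54.3 in the same order of lists. The site chr7:133444999-133446038 was called in all 3 KH2 lists of 2i and reached 81.3 in GFP-high cells, 41.4 after 3 passages, 45.5 at 24 h with lot C01MG07 and 7.5 at 24 h with lot 20100713. These sites were called both after 3 passages and at 24 h with lot C01MG07, whereas the 24 h list of lot 20100713 lacked some of them.

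The region chr16:13747835-13751054 differed from the rest of the 10. It had a fold of 75.9 in GFP-high cells and was called in 12 of the 14 lists, the standard serum Nanog list not among them. Its Nanog folds in 2i were 31.5 at 24 h with lot 20100713, 41.9 after 3 passages and 33.5 at 24 h with lot C01MG07, and 59.2 in the DNMT triple knockout cells. Sox2 had a fold of 22.2 there in serum, 16.1 at 24 h of 2i and 13.2 after 3 passages. A GFP-high-only region with Sox2 in 2i but not in serum was chr6:84252515-84253610, with a Nanog fold of 72.2 in GFP-high cells, 15.5 at 24 h with lot 20100713, 38.9 after 3 passages and 59.0 at 24 h with lot C01MG07. Its Sox2 fold was 5.04 at 24 h of 2i and 8.04 after 3 passages.

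Among the 5 standard-serum-only regions of highest fold, 4 held serum Sox2, 4 were called at 24 h with lot 20100713, 3 after 3 passages and 1 at 24 h with lot C01MG07. The site chr14:9569194-9569953 had a fold of 69.7 in standard serum cells, 8.4 at 24 h with lot 20100713 and 21.2 for serum Sox2. At chr9:47712348-47713078 the Nanog fold was 66.4 in standard serum cells, 41.8 at 24 h with lot 20100713, 26.02 after 3 passages and 14.6 at 24 h with lot C01MG07. In contrast to the GFP-high-only sites, these were mostly Sox2 regions of serum.

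The shared regions of highest GFP-high fold also exceeded a fold of 20 in the standard serum list. The site chr13:51001533-51003127 had a fold of 280.0 in GFP-high cells and 54.4 in standard serum cells, and chr17:22656550-22658721 had 257.2 in GFP-high cells and 46.7 in standard serum cells. Fold depends on each list's own control and depth, so folds of different lists are given side by side and their ratio is not a measured change in binding.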

How the data were processed

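Chromatin from formaldehyde-fixed KH2 cells was immunoprecipitated and sequenced on an Illumina HiSeq instrument, per the labels' protocols. Peaks were deposited as narrowPeak lists of build mm9. BWA 0.5.7, Bowtie 0.12.7 and MACS2 are named in the submitters' processing notes, with no role or parameters for each. The deposited lists give per peak a fold enrichment over control (a ratio), a q-value as −log10, a display score and a summit offset, all made by the authors. The authors' peak names speak of pooled replicates against a control, and the sources used here do not say which control was used. No reads or counts were used, so depth is unknown. The score column was not used.

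Peaks on chromosomes 1 to 19 and X were joined where they overlapped by 1 bp, and each region took the highest fold of its peaks in a list. Lists were compared as shares of regions, with exact (Clopper-Pearson) and Newcombe 95% intervals, in Python 3.11.15 with NumPy 2.4.6, pandas 2.3.3 and SciPy 1.17.1. The region code was tested on simulated peaks. No p-value was computed because each condition had 1 list. Named regions were the 10 GFP-high-only, 5 standard-serum-only and 5 shared regions of highest fold, and the 5 of highest fold among GFP-high-only regions called in all 3 KH2 lists of 2i and the 24 h Sox2 list, of which a part is described. The regions, lists and comparisons were chosen with earlier results of these data known. Alternatives changed the list length, the q threshold and the overlap. Shortening the Nanog lists of 2i or the Oct4 and Sox2 lists to equal length was added after seeing the data.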

Additional observations from a re-analysis of the deposited data

Results flagged for a closer look

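The private classes of the serum lists differed from each other in opposite directions across the Nanog lists of 2i. GFP-high-only minus standard-serum-only shares were -11.8 percentage points at 24 h with lot 20100713, 16.8 points after 3 passages with lot 20100713 and 23.9 points at 24 h with lot C01MG07. These differences had no test over replicates, since each condition had 1 list.

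For Sox2 the difference between GFP-high-only and standard-serum-only regions was 2.25 points with the list of 24 h of 2i and -14.2 points with the serum list. The change of sign between these Sox2 lists was not tested.

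Peaks outside the compared chromosomes also differed. The GFP-high list held 33 peaks on unplaced contigs, against 0 in the standard serum list. On chromosome Y the GFP-high list held 0 peaks, against 21 in the standard serum list. The part of these features in the comparisons was not tested.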

How the results depend on the processing

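Of 91 recomputed values of 14 results, 71 stayed close to the reported value and 20 did not. Close meant within 1.5 times for a count of regions. For a share or difference it meant that the interval of the reported value held the recomputed value. The sign turned for 1 result, the Oct4 difference at 24 h of 2i, which was 0.068 points as reported, -0.463 with serum lists of equal length by fold and -0.0992 with Oct4 lists of equal length, each with an interval that included 0. A common lowest −log10 q of 22.0 kept 18466 of the 25513 standard serum peaks and left 3925 standard-serum-only regions, against 8183, because fewer peaks entered. GFP-high-only regions then numbered 11898 and shared regions 14441. With that threshold the share with a 2i peak of lot 20100713 was 73.1% of GFP-high-only and 71.9% of standard-serum-only regions. The differences in points were then -9.87 for Nanog at 24 h with lot 20100713, 14.4 after 3 passages, -19.0 for serum Sox2, 3.44 for Sox2 at 24 h, 1.16 for Oct4 at 24 h and -9.47 for serum H3K4me3, and GFP-high cells held 42.2% of the 2i regions that standard serum lacked. With serum lists of equal length by fold, the differences were -14.1 for Nanog at 24 h, 15.2 after 3 passages, -15.5 for serum Sox2 and -13.9 for serum H3K4me3. The same lists gave 68.1% of GFP-high-only and 68.0% of standard-serum-only regions with a 2i peak of lot 20100713, and 34.5% of the 2i regions. Equal length by −log10 q gave 69.9% of GFP-high-only regions with such a peak, and 34.9% of the 2i regions. Nanog lists of 2i at equal length, an alternative added after seeing the data, gave -6.28 points at 24 h with lot 20100713 and 14.1 after 3 passages. The cause of these shifts was not tested apart from the number of peaks kept. No paired analysis was possible because each condition had 1 list, and leaving out a replicate was likewise not possible. The 1 library behind the GFP-high list and the unknown read depth limit all comparisons.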

Other observations

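Chromosome X held a larger share of GFP-high-only than of standard-serum-only regions. The counts on X were 365 GFP-high-only regions (3.98% of the class, exact 95% interval 3.59 to 4.41%), 646 shared regions (3.76%) and 211 standard-serum-only regions (2.58%, 2.25 to 2.95%). GFP-high-only regions were 1.73 times as many as standard-serum-only regions on X, and between 0.895 times (chromosome 8) and 1.39 times (chromosome 13) as many on the autosomes. No test over replicates was possible for this difference.

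Regions called in no other list of the series were about as frequent in both private classes. They numbered 2168 GFP-high-only regions (23.7%, 22.8 to 24.5%), against 1929 standard-serum-only regions (23.6%). The strongest of the GFP-high-only set was chr2:98506175-98507688 with a fold of 70.6, and the next was chr7:11664973-11665723 with 27.3. No annotation of mm9 was used, so whether either lies in repeated sequence was not tested. In the standard-serum-only set they were chr1:89209634-89210276 with 36.1 and chr13:34920139-34920792 with 33.2. These 4 sites were chosen after their values were seen.

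Private regions did not lie beside peaks of the other list as a rule. The median distance to the nearest peak of the other list was 26.2 kb for GFP-high-only and 25.2 kb for standard-serum-only regions. A peak within 1 kb was found for 5.39% of GFP-high-only and 5.05% of standard-serum-only regions.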
